A study of Homo sapiens with 4 samples.

Results

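Imprinted long noncoding RNAs were followed through the estimated transcript counts of wild-type and oxaliplatin-resistant cells. The 8 genes were named by symbol (*H19*, *KCNQ1OT1*, *MEG3*, *MEG8*, *SNHG14*, *GNAS-AS1*, *PWAR5* and *PWAR6*). GENCODE release 29 assigns 118 Ensembl transcripts to them, and every one of these found in the table was taken. This gave 113 of the 106179 transcripts in the table, belonging to 6 of the 8 genes. The single transcripts of *PWAR5* and *PWAR6* have no row in the table and are not analysed here. The cells are labelled HepG2, an established human line, labelled hepatocellular carcinoma. There were 2 libraries of wild-type cells and 2 of cells labelled resistant to oxaliplatin, a platinum drug that binds DNA. No dose, time of exposure or clone is given in the sources used here for the resistant cells, and the labels list no other treatment of either group. Nothing in the labels tells whether libraries of one group were separate cultures, and the p-values therefore measure only how far these libraries spread, which may be technical.

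At an imprinted locus only the copy inherited from one parent is active. Which copy that is depends on DNA methylation set in the germ line at an imprinting control region. *H19* and *MEG3* are expressed from the maternal copy, and each lies in a domain with a paternally expressed growth gene, *IGF2* and *DLK1*. *KCNQ1OT1*, *SNHG14* and *GNAS-AS1* are paternally expressed. *KCNQ1OT1* runs antisense to *KCNQ1* and silences neighbouring genes on its chromosome. *SNHG14* is a long host transcript whose introns release the SNORD116 and SNORD115 small nucleolar RNAs, and its far end runs antisense to *UBE3A*. *H19* is known as an oncofetal RNA of liver, high before birth and again in some liver tumours, and it is the precursor of miR-675.

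*H19* transcripts are described below by whether they hold the miR-675 hairpin, since the RNA is its precursor. The hairpin lies in the first exon of the longer *H19* transcripts, at GRCh38 chromosome 11, 1996759 to 1996831, minus strand. The RefSeq (GRCh38.p14) hairpin is shown with both mature arms in capitals, and each arm is then shown with its seed, bases 2 to 8, in capitals.
MIR675 hairpin: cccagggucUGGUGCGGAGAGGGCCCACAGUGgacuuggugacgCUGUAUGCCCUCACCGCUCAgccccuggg
hsa-miR-675-5p: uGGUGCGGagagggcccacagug
hsa-miR-675-3p: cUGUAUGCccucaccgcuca

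The transcript that took most *H19* counts, ENST00000417089, starts 19 bases downstream of this hairpin and skips an exon of 123 bases (chromosome 11, 1995876 to 1995998). Its first 60 bases and the junction across the skipped exon are shown with the same junction in ENST00000414790, which keeps the exon. Capitals mark the 20 bases after the junction. Sequences are from GENCODE release 29 on GRCh38.
ENST00000417089 start: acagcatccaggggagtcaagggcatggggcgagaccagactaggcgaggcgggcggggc
ENST00000417089 junction: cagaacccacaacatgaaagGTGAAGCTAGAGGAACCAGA
ENST00000414790 junction: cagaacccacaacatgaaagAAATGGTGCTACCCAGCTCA

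ENST00000414790 and ENST00000412788 have the same exon plan and hold the hairpin, and their counts differed between the groups in opposite directions. ENST00000414790 is longer by 61 bases at its start and by 6 bases at the start of its last exon.

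*SNHG14* transcripts are described below by where they lie relative to its 2 snoRNA clusters. The first snoRNA of each cluster is shown, from GENCODE release 29, with the C box letters TGATGA and the D box letters CTGA in capitals. SNORD116-1 lies at GRCh38 chromosome 15, 25051477 to 25051571, and SNORD115-1 at 25170723 to 25170804, both on the plus strand. These boxes are the marks of the C/D class of snoRNAs, many of which guide methylation of other RNAs.
SNORD116-1: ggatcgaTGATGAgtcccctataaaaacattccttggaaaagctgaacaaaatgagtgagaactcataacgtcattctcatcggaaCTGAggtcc
SNORD115-1: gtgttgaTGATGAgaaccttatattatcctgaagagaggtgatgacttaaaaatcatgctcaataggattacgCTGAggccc

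The libraries held 34898860 to 44063444 counts each, so 3 counts, the limit that a count of 0 allows, correspond to 0.0681 to 0.0860 CPM (counts scaled to library size). Such limits and the intervals below cover counting error only. Of the 20 hepatocyte marker names, 13 had noncoding transcripts in the table and 10 of these had no count in any library. Marker sums are in CPM scaled to the genes tested, where 3 counts correspond to 0.0798 to 0.110 CPM. The hepatocyte list summed to 0.266 to 2.13 CPM. *AFP*, *TTR* and *SERPINA1* were at 0 in all libraries and *ALB* had 8 counts in wild-type replicate 1 and 0 elsewhere. mRNAs of these genes are not analysed here, so the labelled cell type was not shown by these markers. The 15 fibroblast markers summed to 265 and 305 CPM in the wild-type libraries and 293 and 259 CPM in the resistant ones, the 5 endothelial ones in the table to 5.80 to 7.13 CPM, and the 5 immune ones to at most 0.719 CPM. Of the 9 fibroblast markers tested, *ACTA2*, *FBN1* and *COL5A1* were higher and *VIM* and *PDGFRB* lower in resistant cells without overlap (over all genes, 22.5% and 20.5%), none passed adjustment in edgeR, and the median log2 fold change was 0.18 against 0.01 over all genes. The part of any cell mixture in the results was not tested.

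Of the 6 genes, *H19* and *SNHG14* were abundant, *GNAS-AS1* was low and uneven, and *KCNQ1OT1*, *MEG3* and *MEG8* had 0 to 19 counts in any library. *H19* had 6486 and 8186 counts in wild-type replicates 1 and 2 and 5958 and 5116 in resistant replicates 1 and 2. *SNHG14* had 7787 and 5689 counts in the wild-type libraries and 11622 and 12585 in resistant cells. *GNAS-AS1* had 378 and 8 counts in the wild-type libraries and 25 and 69 in resistant cells. *KCNQ1OT1* had 1 count in each of 3 libraries and 6 in resistant replicate 2. *MEG3* and *MEG8* had 0 counts in 3 libraries and 5 and 19 in resistant replicate 2. The small counts of all 3 were thus highest in 1 and the same library.

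**Figure D1:**
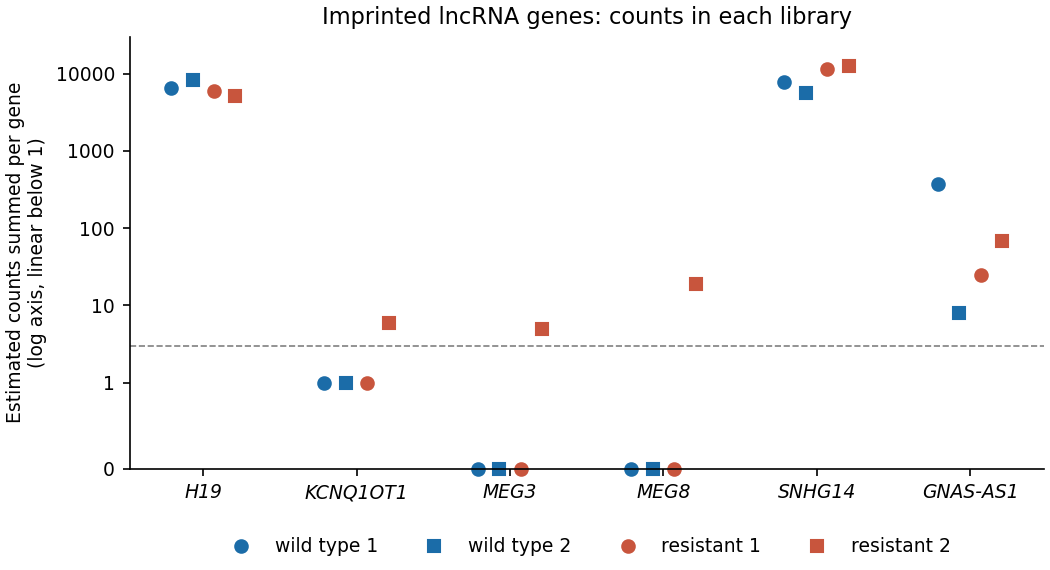
Estimated counts summed over the transcripts of each imprinted lncRNA gene (log axis, linear below 1), with 1 point per library: circles for replicate 1 and squares for replicate 2, blue for wild type and red for resistant cells. The dashed line marks 3 counts, the limit that a count of 0 allows, which *KCNQ1OT1*, *MEG3* and *MEG8* exceeded in resistant replicate 2 alone (6, 5 and 19 counts).

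Levels of different genes were compared per length, as CPM per kb of each transcript, where CPM here is scaled by trimmed mean of M-values (TMM) to the genes tested. *H19* was at 156 and 220 CPM per kb in the wild-type libraries and 126 and 114 in resistant cells. *SNHG14* was at 62.7 and 43.0 CPM per kb in the wild-type libraries and 71.3 and 84.7 in resistant cells. *H19* was above *SNHG14* in each of the 4 libraries on this scale, with means of 188 ± 45.0 against 52.8 ± 13.9 in the wild-type libraries and 120 ± 8.19 against 78.0 ± 9.51 in resistant cells (SD, n = 2). *GNAS-AS1* came next, at 5.42 ± 7.49 and 0.796 ± 0.724 CPM per kb. *MEG8* and *MEG3* (0.20 and 0.0404 CPM per kb in resistant replicate 2) and *KCNQ1OT1* (at most 0.00179) followed, on counts that were within the limit of 3 in the other 3 libraries, so their order rests on 1 library. Averaged over the 4 libraries, *H19* stood at percentile 97.3 and *SNHG14* at percentile 94.4 of the 3995 long noncoding genes tested, and *GNAS-AS1* at percentile 58.7.

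The comparison of resistant with wild-type cells, the question of the series, could be made for 3 of the 6 genes, *H19*, *SNHG14* and *GNAS-AS1*, which passed the expression filter. *H19* was lower in both resistant libraries than in both wild-type ones. It had 219 and 301 CPM in the wild-type libraries and 159 and 140 CPM in the resistant ones, a 1.74-fold lower mean. The log2 fold change was -0.80 ± 0.28 (SE), with a 95% interval from -1.62 to 0.01, and did not pass the edgeR quasi-likelihood test (adjusted p = 0.584 with Benjamini-Hochberg adjustment over 13745 genes). Without wild-type replicate 2 it was -0.56. In bulk RNA, fewer cells that express a gene and less of its RNA per cell cannot be told apart. Among all genes tested, 20.5% were lower in resistant cells without overlap between the groups.

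*SNHG14* went the other way: it had 263 and 209 CPM in the wild-type libraries and 309 and 344 CPM in the resistant ones, a 1.38-fold higher mean. Its log2 fold change of 0.47 ± 0.25 (SE), with a 95% interval from -0.26 to 1.20, did not pass either (edgeR adjusted p = 0.704). Among all genes tested, 22.5% were higher in resistant cells without overlap. Without wild-type replicate 1 the value was 0.65, and without wild-type replicate 2 it was 0.31. *GNAS-AS1* had 12.8 and 0.294 CPM in the wild-type libraries and 0.665 and 1.89 CPM in the resistant ones, so the groups overlapped. Its log2 fold change was -2.36 ± 1.86 (SE; adjusted p = 0.794 in edgeR). Without wild-type replicate 1 the sign turned, to 2.10. None of the 3 genes passed adjustment in edgeR, limma-voom or DESeq2, where 0%, 0% and 4.60% of all genes did. At an unadjusted p under 0.05 none passed in edgeR, where 8.67% of all genes did, and *H19* alone did in DESeq2, where 12.3% of all genes did.

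The 12 *H19* transcripts were not alike (*H19*, ENSG00000130600, chromosome 11, 1995176 to 2001470, minus strand). The 3 without a count (ENST00000422826, ENST00000428066 and ENST00000643292) included both that start furthest upstream. The other 9 passed the filter. The 4 transcripts that hold the miR-675 hairpin together took a smaller share of the *H19* counts in the resistant libraries, and the short transcript ENST00000417089 a larger one. The differences of single transcripts did not divide by the hairpin. In CPM, 1 that holds it was higher, and 3 that lack it were lower, in both resistant libraries. Among all transcripts tested, 21.4% were higher and 18.9% lower without overlap.

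ENST00000417089, with 4 exons and 1090 bases (chromosome 11, 1995176 to 1996740), had 2066 and 2997 counts in the wild-type libraries and 3264 and 3503 in resistant cells. In CPM of the transcript test it was at 57.3 and 90.7 in the wild-type libraries and 71.8 and 79.8 in the resistant ones, so the groups overlapped. Its log2 fold change of 0.03 ± 0.39 (SE; adjusted p = 0.9999 in edgeR) lay between -0.26 and 0.40 when 1 library was left out. Its CPM thus overlapped between the groups, while its share of the *H19* counts was 31.9% and 36.6% in the wild-type libraries and 54.8% and 68.5% in resistant cells.

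The 4 transcripts with the whole hairpin in an exon were ENST00000439725, ENST00000411861, ENST00000412788 and ENST00000414790. Together they took 61.6% (95% Wilson interval 60.4 to 62.8) and 56.9% (55.8 to 58.0) of the *H19* counts in the wild-type libraries. In the resistant libraries they took 40.1% (38.8 to 41.3) and 27.2% (26.0 to 28.5). The means were 59.3% ± 3.33 and 33.7% ± 9.09 (SD, n = 2), and the groups did not overlap. In CPM 40.3% of all transcripts tested did not overlap, and shares within other genes were not computed. In counts, they held 3996 and 4658 against 2388 and 1393. This split by hairpin was made after the values had been seen, so it is a description with no test. Counted per kb, so that long transcripts weigh no more than short ones, the shares were 41.7% and 20.1%. The mature miRNA is not measured by these counts.

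**Figure D2:**
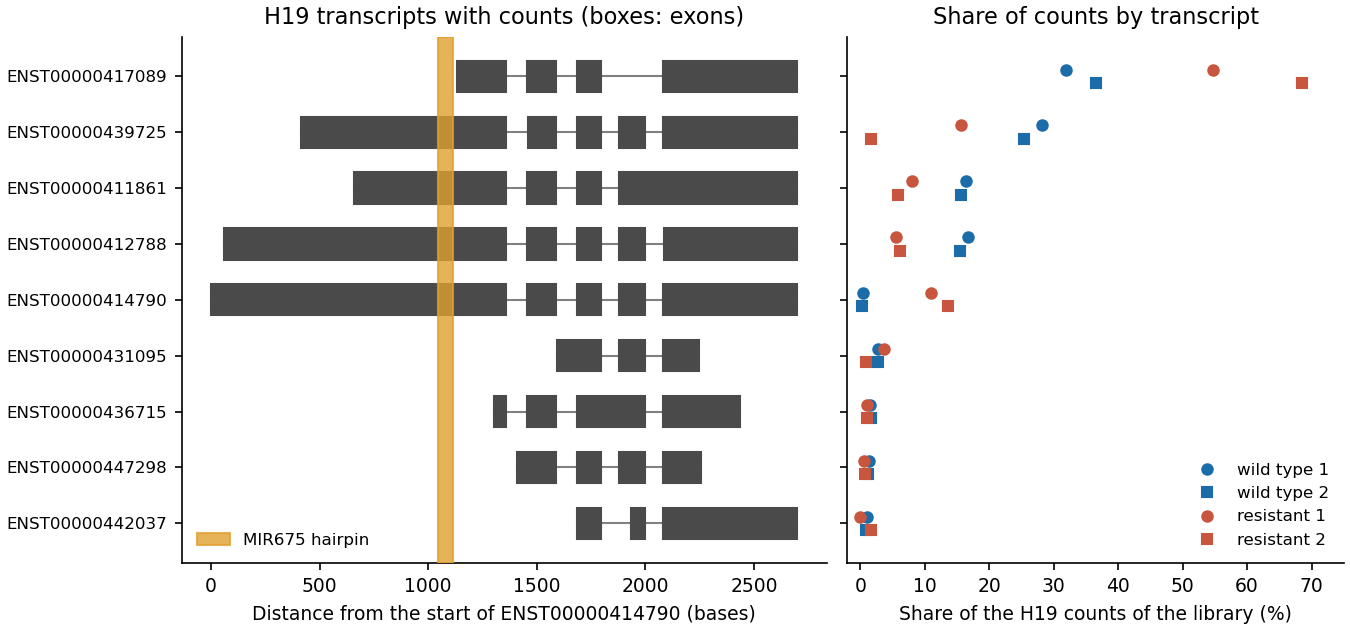
Left, the 9 *H19* transcripts with counts, drawn 5' to 3' by distance in bases from the start of ENST00000414790 (boxes are exons), with the position of the miR-675 hairpin as a vertical band. Right, the share of the library's *H19* counts (%) on each transcript, 1 point per library; ENST00000417089, which lacks the hairpin, held 31.9% and 36.6% in the wild-type libraries and 54.8% and 68.5% in the resistant ones.

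Among the 4 hairpin transcripts, 3 were lower and 1 was higher in resistant cells. ENST00000412788, of 2281 bases, had 1088 and 1267 counts in the wild-type libraries and 326 and 313 in the resistant ones, 4.79-fold lower in mean CPM. Its log2 fold change was -2.26 ± 0.38 (SE; adjusted p = 0.334 in edgeR). ENST00000411861, which retains the last intron, had 1060 and 1284 counts against 478 and 299, a log2 fold change of -1.98 ± 0.45 (SE; adjusted p = 0.395 in edgeR). The groups did not overlap for either transcript, as for 18.9% of all transcripts in this direction, and neither passed adjustment.

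ENST00000439725 had 1824 and 2081 counts in the wild-type libraries and 930 and 84 in resistant cells. As a ratio, the resistant libraries differed from each other by more than resistant replicate 1 differed from either wild-type library. The log2 fold change of -2.34 ± 1.29 (SE; adjusted p = 0.871 in edgeR) came to -1.48 without resistant replicate 2 and to -4.89 without resistant replicate 1.

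ENST00000414790, of 2348 bases, had 24 and 26 counts in the wild-type libraries and 654 and 697 in the resistant ones, 20.8-fold higher in mean CPM. The log2 fold change was 4.37 ± 0.45 (SE), with a 95% interval from 3.05 to 5.70 (edgeR adjusted p = 0.329), and lay between 4.26 and 4.50 when 1 library was left out. It differs from ENST00000412788 by the bases described above. Summed, the 2 transcripts had 1112 and 1293 counts in the wild-type libraries and 980 and 1010 in the resistant ones, or 17.1% and 15.8% of *H19* against 16.4% and 19.7%, so that their sum overlapped as a share where each alone did not. This sum was chosen after the values had been seen and was not tested. The counts are estimates that divide reads among overlapping transcripts, and the part of that division in the opposite directions was not tested.

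Of the 5 counted *H19* transcripts without the hairpin, ENST00000417089 was described above. ENST00000447298 had 84 and 95 counts in the wild-type libraries and 29 and 33 in resistant cells (log2 fold change -1.90 ± 0.48, SE; adjusted p = 0.442 in edgeR). ENST00000436715 and ENST00000431095 had means 2.73-fold and 1.98-fold lower, and ENST00000442037 had 67 and 71 counts against 0 and 84. ENST00000431095 was at 4.88 and 6.78 CPM in the wild-type libraries and 4.79 and 1.09 in the resistant ones. Its counts overlapped, with 176 and 224 against 218 and 48.

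Over all genes, 20 of the 113 transcripts passed the filter: 9 of *H19*, 9 of *SNHG14* and 2 of *GNAS-AS1*. None passed adjustment in edgeR or limma-voom, as 0% of all 42393 transcripts did in either. At an unadjusted p under 0.05 in edgeR, where 7.74% of all transcripts were, there were 4, all of *H19*: ENST00000412788, ENST00000411861 and ENST00000447298 lower, where 3.18% of all transcripts were, and ENST00000414790 higher, where 4.56% were. The same 4 passed adjustment in DESeq2, with adjusted p from 3.84e-15 to 0.0164, where 5.33% of all transcripts did. With the replicate number as a block, 2 of the 20 had an unadjusted p under 0.05 in edgeR, where 4.63% of all transcripts did. In 12 of the 20 the groups did not overlap, 6 in each direction. ENST00000553134 and ENST00000547292 of *SNHG14*, among those higher, needed the resistant libraries to pass the filter. They had 6 and 0, and 59 and 0, counts in the wild-type libraries. Their direction and lack of overlap are thus no evidence of a difference, and the *SNHG14* median below includes both. Among all transcripts 40.3% did not overlap, 18.9% lower and 21.4% higher in resistant cells. The median log2 fold change was -1.45 over the tested *H19* transcripts and 0.69 over those of *SNHG14*, against 0.02 over all transcripts.

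**Figure D3:**
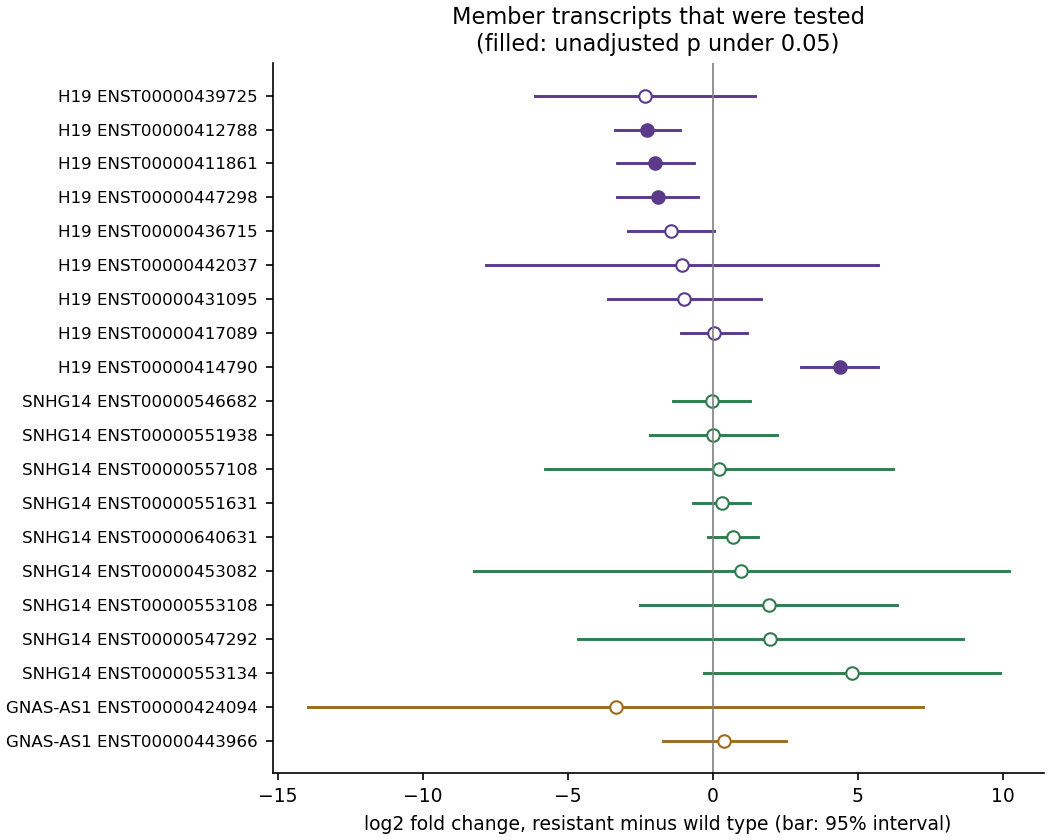
log2 fold change (resistant minus wild type) of the 20 imprinted lncRNA transcripts that were tested, with 95% intervals derived from the edgeR F statistic as bars. Filled points have an unadjusted p under 0.05 in edgeR. The 4 filled points all belong to *H19*, 3 below 0 and ENST00000414790 at 4.37.

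The 24 *SNHG14* transcripts in the table (ENSG00000224078, chromosome 15, 24978583 to 25419462, plus strand) were counted in the upstream part of the locus and hardly at all beyond the SNORD116 cluster. That cluster has 30 annotated genes between 25051477 and 25108352, and the SNORD115 cluster has 48 between 25170723 and 25269858. In brain the whole unit is known to be transcribed, and the part from SNORD115 on is known mainly from neurons.

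The 6 transcripts that end before SNORD116 took 4857 and 3253 counts in the wild-type libraries and 6132 and 6691 in resistant cells. The 7 that span at least 1 SNORD116 gene took 2887 and 2434 counts in the wild-type libraries and 5488 and 5790 in resistant cells. These segments together held nearly all *SNHG14* counts in each library. The 9 transcripts that span SNORD115 genes had 43, 0, 0 and 104 counts in wild-type replicates 1 and 2 and resistant replicates 1 and 2. All of these lay on 1 transcript, ENST00000453082, and the other 8 had no count. At this depth a share of *SNHG14* counts up to 0.0675% in wild-type replicate 2 and 0.0330% in resistant replicate 1 (upper 95% Wilson bounds) cannot be told apart from 0. The single transcript that lies between the clusters had no count, and the one beyond them, ENST00000580438, antisense to *UBE3A*, had at most 2.

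As a share of *SNHG14*, the SNORD116 segment held 37.1% and 42.8% in the wild-type libraries and 47.2% and 46.0% in resistant cells. The means were 39.9% ± 4.04 and 46.6% ± 0.858 (SD, n = 2). The groups did not overlap, and the upstream segment took nearly all of the rest, 59.8% ± 3.67 and 53.0% ± 0.286. In CPM 40.3% of all transcripts tested did not overlap, and such shares were not computed for other genes. Counted per kb, the SNORD116 share was 19.7% and 29.1%. The segments were drawn after the counts of single transcripts had been seen, so no test was made.

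**Figure D4:**
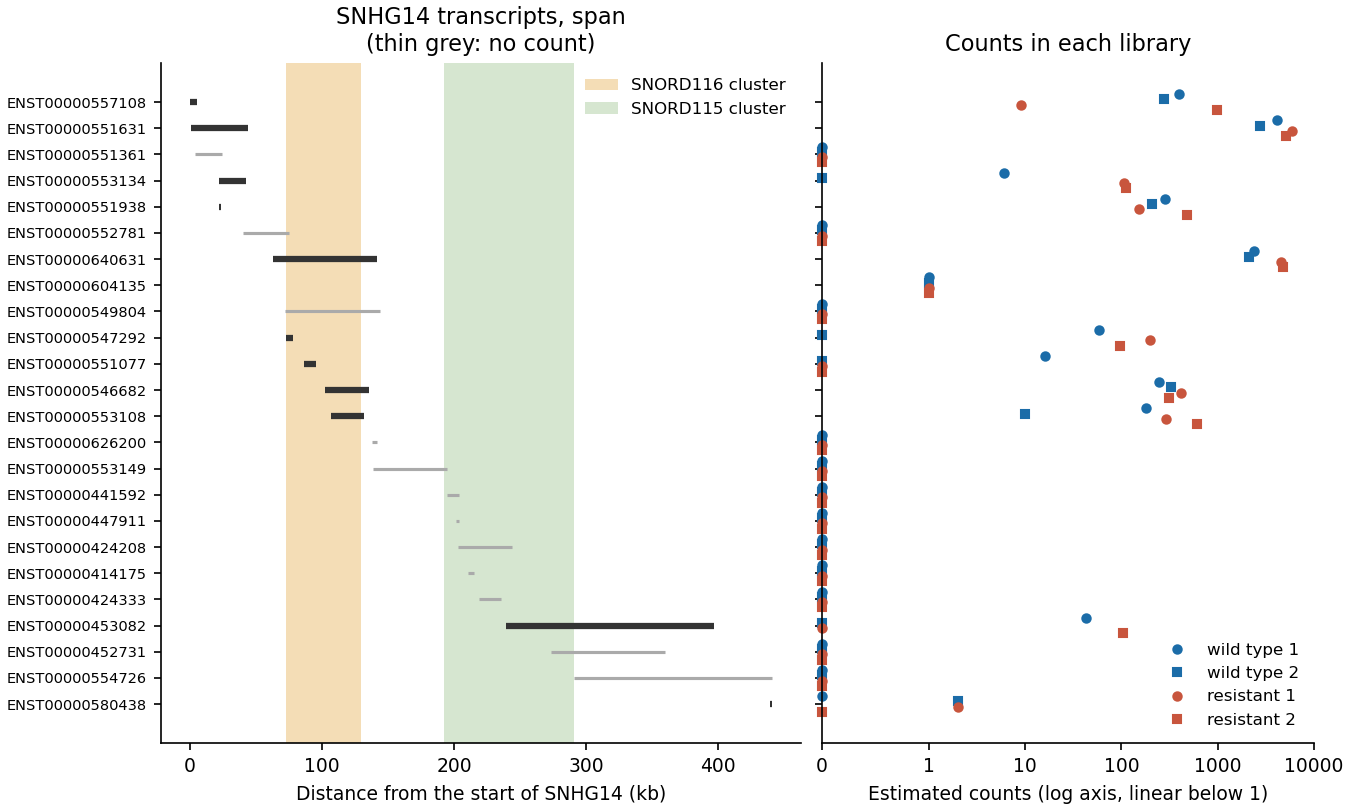
Left, the span of each *SNHG14* transcript in the table by distance from the start of the gene (kb), thick where it had a count, with the SNORD116 and SNORD115 clusters shaded. Right, estimated counts in each library on a log axis that is linear below 1; of the 9 transcripts that span SNORD115 genes, ENST00000453082 alone had counts (43 and 104 in 1 library of each group).

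1 transcript led each segment. ENST00000551631, with 11 exons (24979557 to 25022666), lies upstream of SNORD116 and has SNORD107 in an exon and SNORD64 and SNORD108 in introns. It had 4166 and 2766 counts in the wild-type libraries and 5861 and 5111 in the resistant ones, a log2 fold change of 0.30 ± 0.34 (SE; adjusted p = 0.970 in edgeR). It came to 0.08 without wild-type replicate 2 and to 0.55 without wild-type replicate 1. ENST00000640631, with 38 exons (25041689 to 25120432), spans all 30 SNORD116 genes. It had 2387 and 2096 counts in the wild-type libraries and 4584 and 4780 in the resistant ones, a 1.62-fold higher mean CPM. Its log2 fold change of 0.69 ± 0.29 (SE; adjusted p = 0.778 in edgeR) did not pass. Its groups did not overlap, as for 21.4% of all transcripts in this direction.

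The minor *SNHG14* transcripts varied within groups. ENST00000557108, a retained-intron form at the 5' end, had 400 and 276 counts in the wild-type libraries and 9 and 986 in resistant cells. ENST00000553108 had 180 and 10 counts against 288 and 604. ENST00000546682, which spans 16 SNORD116 genes, had 245 and 328 counts against 419 and 310, and its groups overlapped in CPM. Its log2 fold change was -0.04 ± 0.45 (SE), with an edgeR adjusted p of 0.9999. Whether this value differed from that of ENST00000640631, 0.69 ± 0.29 (SE), was not tested. ENST00000553134 had 6 and 0 counts in the wild-type libraries and 107 and 111 in resistant cells (edgeR adjusted p = 0.690). It passed the filter through the resistant libraries alone, so its direction and lack of overlap are no evidence of a difference. At a count of 0 in 1 library and 10 or more in the other, there were 3 *SNHG14* transcripts within the wild-type pair and 1 within the resistant pair, against 0 and 1 of *H19*.

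*GNAS-AS1*, the antisense RNA at the upstream end of the *GNAS* locus (ENSG00000235590, chromosome 20, 58818919 to 58850903, minus strand), was carried by 2 of its 4 transcripts. ENST00000424094 had 355 and 0 counts in the wild-type libraries and 0 and 42 in the resistant ones, so it was counted in 1 library of each group. ENST00000443966 had 23 and 8 counts in the wild-type libraries and 25 and 27 in the resistant ones. Its log2 fold change was 0.40 ± 0.72 (SE; adjusted p = 0.993 in edgeR) and came to -0.13 without wild-type replicate 2. The use of strand in counting is not given in the sources used here, so reads of *GNAS-AS1* and *GNAS*, of *KCNQ1OT1* and *KCNQ1*, and of *SNHG14* and *UBE3A* cannot be told apart where the genes overlap.

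*MEG3*, a maternally expressed RNA with growth-inhibiting activity, had 48 transcripts in the table, of which 47 had no count in any library (ENSG00000214548, chromosome 14, 100779410 to 100861031, plus strand). The other, ENST00000398460, had 5 counts in resistant replicate 2. *MEG8*, which lies downstream on the same strand and hosts snoRNAs and miRNAs in its introns, had 24 transcripts, and 23 had no count. ENST00000636391 had 19 counts in resistant replicate 2. *KCNQ1OT1* has 1 annotated transcript, ENST00000597346, unspliced over 91667 bases (chromosome 11, 2608328 to 2699994, minus strand), with 1, 1, 1 and 6 counts. No fold change is given for these 3 genes, because all wild-type values were within the limit of 3 counts.

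Other genes of these loci were counted where the table holds noncoding transcripts for them. Of 28 neighbour names, 18 were in the table, 12 of these had no count in any library, and 5 were tested. Near *H19* and *KCNQ1OT1*, the noncoding transcripts of *IGF2*, *IGF2-AS*, *KCNQ1* and *KCNQ1DN* had no count and that of *CDKN1C*, a cell cycle inhibitor gene, had 3 to 8. *MRPL23-AS1*, next to *H19*, had 159 and 198 counts in the wild-type libraries and 77 and 0 in resistant cells (log2 fold change -2.62 ± 2.23, SE; adjusted p = 0.811 in edgeR). *SLC22A18*, a transporter gene of the *KCNQ1OT1* domain, had 16.1 ± 13.4 CPM in the wild-type libraries and 4.97 ± 1.98 CPM in resistant cells (SD, n = 2; edgeR adjusted p = 0.690). Around *MEG3*, *DLK1* and *MEG9* had no count, whereas *DIO3OS* at the far end of that domain had 83 and 56 counts in the wild-type libraries and 138 and 144 in resistant cells (edgeR adjusted p = 0.766).

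Around *SNHG14*, the noncoding transcripts of *SNRPN* and *MKRN3* and all 4 *PWRN* genes had no count. *UBE3A*, a ubiquitin ligase gene, had 6364 and 4282 counts in the wild-type libraries and 9646 and 8502 in the resistant ones. Its groups did not overlap in CPM (186 ± 40.9 and 245 ± 17.2, SD, n = 2), and 22.5% of all genes were likewise higher without overlap. Its log2 fold change was 0.39 ± 0.28 (SE, adjusted p = 0.768 in edgeR). *GNAS*, the gene of the stimulatory G protein subunit, had 808 ± 382 and 639 ± 347 CPM (SD, n = 2; edgeR adjusted p = 0.917). None of the 5 tested neighbours had an unadjusted p under 0.05 in edgeR, where 8.67% of all genes did. Their median log2 fold change was -0.34 against 0.01 over all genes.

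Of 25 other imprinted names, 18 were in the table, 8 had no count and 8 were tested. None had an unadjusted p under 0.05 in edgeR, where 8.67% of all genes did, and their median log2 fold change was 0.22. The highest were *PLAGL1*, a zinc finger gene, at 233 ± 31.5 CPM in the wild-type libraries and 321 ± 35.7 CPM in the resistant ones, and *GRB10*, a growth factor receptor adaptor gene, at 205 ± 62.7 and 243 ± 44.9 CPM (SD, n = 2). *AIRN*, *WT1-AS* and the noncoding transcripts of *PEG3* and *PEG10* were among those with no count. For coding genes, *PLAGL1* and *GRB10* included, these values cover noncoding transcripts only. Their mRNAs are not analysed here.

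**Figure D5:**
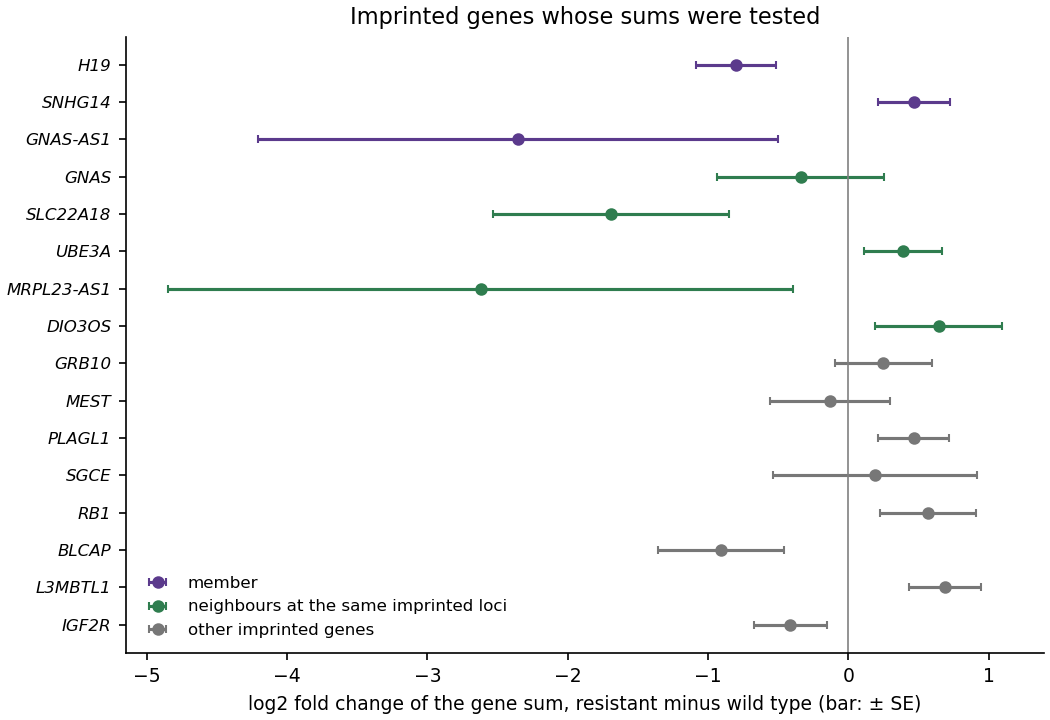
log2 fold change of gene sums (resistant minus wild type) with its SE as a bar, for the 3 lncRNA genes described here, 5 neighbours at the same loci and 8 other imprinted genes that were tested. *H19* stood at -0.80 and *SNHG14* at 0.47, and none of the 16 passed adjustment in edgeR.

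Noncoding transcripts of genes that set or read imprints were tested for 19 of 24 names, and 0 passed adjustment in edgeR. At an unadjusted p under 0.05 there were 2 higher in resistant cells, where 4.74% of all genes were, and 2 lower, where 3.93% were. *DNMT3A*, a de novo DNA methyltransferase gene, had 422 and 215 counts in the wild-type libraries and 45 and 59 in the resistant ones, a log2 fold change of -2.98 ± 0.54 (SE; adjusted p = 0.362 in edgeR). *TET2*, which encodes an enzyme that oxidises methylcytosine, had 487 and 465 counts against 1251 and 2216 (log2 fold change 1.48 ± 0.42, SE; adjusted p = 0.488 in edgeR). The others were *ARID4B* (log2 fold change -1.98) and the Polycomb gene *EZH2* (4.55), both with edgeR adjusted p = 0.323. The list's median was 0.06 against 0.01 over all genes. *CTCF*, whose protein binds the *H19* control region, had 2489 and 2892 counts in the wild-type libraries and 2727 and 3373 in the resistant ones, and the groups overlapped in CPM (95.2 ± 15.6 and 82.4 ± 13.9; SD, n = 2). It was named after its values were seen.

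The genes whose pattern over the 4 libraries was closest to each lncRNA were sought among the lincRNA and antisense genes tested, by the root mean square difference in centred log2(CPM + 0.5). With 4 libraries many genes lie close, and the measure is a description. *BRWD1-AS2* and *AC067838.1* lay closest to *H19* (0.0547 and 0.0550, against a median of 0.656 over 3152 genes). *AL035252.3* and *LINC02551* lay closest to *SNHG14* (0.0307 and 0.0319, median 0.575). For *GNAS-AS1*, whose pattern is 1 high wild-type library, the closest were *AC099550.1* and *LINC00235* (0.265 and 0.286, median 1.65).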

How the data were processed

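Total RNA of 4 libraries labelled HepG2 was sequenced by paired-end Illumina reads of 150 bases, per the labels' protocols. The table deposited by the authors holds estimated counts in whole numbers for each transcript. That unit was read from the values. No counting tool, annotation or human build is given in the sources used here. In the submitters' processing notes the build is mm9, of mouse, and the identifiers are human. GENCODE release 29 (GRCh38) named 84072 of 103347 Ensembl identifiers. Reads of these genes on unnamed or assembled transcripts are not in the sums.

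Gene sums (13745 after filtering) and transcripts (42393) were tested with the edgeR 4.0.16 quasi-likelihood test in R 4.3.3, with TMM scaling, edgeR's filter at a minimum count of 10, two-sided, with Benjamini-Hochberg adjustment at 0.05. On counts simulated with a dispersion of 0.02, the test on gene sums recovered 100 of 100 genes changed 4-fold. With the dispersions estimated here, it recovered 0 of 100 changed 16-fold. Each simulation changed 100 genes 4-fold and 100 genes 16-fold among 13745. It does not give the recovery where more genes differ, since the adjustment depends on their number. With 2 libraries against 2 the smallest exact permutation p is 0.33, so none was used. Alternatives used DESeq2 1.42.0 and limma 3.58.1. The SE of a log2 fold change was derived as its absolute value divided by the square root of the edgeR F statistic. Its 95% interval used a t quantile at the test's degrees of freedom. Shares carry 95% Wilson intervals.

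The genes and lists were chosen with earlier results of these data known. Named are all 8 genes, their transcripts at 10% or more of the gene's counts or with unadjusted p under 0.05, the 2 genes closest in pattern, tested neighbours, and in other lists the members with unadjusted p under 0.05 or else the 2 of highest mean. Marker and minor transcripts named outside this rule were chosen after their values were seen. Markers named by this rule were *PDGFRB* in fibroblasts, *ENG* in endothelium and *FGG* in hepatocytes. *PDGFRB* was the 1 of 9 fibroblast markers tested with an unadjusted p under 0.05 in edgeR, where 8.67% of all genes were. It was lower in resistant cells, as were 3.93% of all genes at that threshold. Its mean was 4.73 ± 1.62 CPM for the wild-type libraries against 0.736 ± 0.615 for the resistant ones (SD, n = 2, edgeR adjusted p = 0.556). In the same order, *ENG* had 6.42 ± 0.998 and 5.84 ± 0.167 CPM, and *FGG* had 0.216 ± 0.162 and 1.12 ± 1.28 CPM.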

Additional observations from a re-analysis of the deposited data

How the results depend on the processing

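The log2 fold changes of *H19* and *SNHG14* kept their direction and stayed short of the adjusted threshold in all 11 alternatives (*H19* -1.01 to -0.56, *SNHG14* 0.31 to 0.65). With 1 library left out, *GNAS-AS1* ran from -3.32 to 2.10, turning without wild-type replicate 1. So did 3 transcripts: ENST00000417089 (-0.26 to 0.40; -0.26 without wild-type replicate 1 and -0.05 without resistant replicate 2), ENST00000424094 (-10.56 to 7.30, the latter without wild-type replicate 1) and ENST00000443966 (-0.13 to 1.26, the former without wild-type replicate 2). DESeq2 called 632 genes and 2261 transcripts where edgeR called 0. With the replicate number as a block, edgeR called 0 of either and gave 781 genes and 1961 transcripts at an unadjusted p under 0.05, against 1192 and 3283. The numbers share no stated origin, and the correlation of deviations was -0.0187 for genes and 0.00842 for transcripts. Whether the libraries were prepared in pairs is not known, and the main test used no block.

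By counts per kb, an alternative chosen after seeing the data, shares (wild type, then resistant) were 43.4% in wild type for ENST00000417089, 19.2% in wild type for ENST00000439725, 12.5% and 4.87% for ENST00000411861, 9.79% and 3.15% for ENST00000412788, and 9.99% and 9.64% for it with ENST00000414790. They were 41.7% and 20.1% for the hairpin transcripts, 57.5% in wild type for ENST00000551631, 11.8% and 12.4% for ENST00000640631, 80.0% and 70.6% for *SNHG14* upstream of SNORD116, and 19.7% and 29.1% for its SNORD116 segment. Using the longest transcript as length, *H19* was at 111 and 63.5 CPM per kb and *SNHG14* at 18.1 and 25.0. Depth limits *MEG3*, *MEG8* and *KCNQ1OT1*, which were within 3 counts in all libraries but resistant replicate 2.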
